A study of Mus musculus with 23 samples.

Results

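Transcript abundance in knee cartilage was compared between 12 and 6 weeks after surgery, within each of 3 groups of mice that had 3 usable libraries at both times. The groups were wild-type mice with destabilization of the medial meniscus (WT DMM, genotype label TET1+/+), Tet1 mutant mice with sham surgery (mutant sham, genotype label TET-/-) and Tet1 mutant mice with DMM (mutant DMM). They hold 18 of the 23 samples of the series, in 6 of its 8 sets of genotype, surgery and time. The 5 wild-type sham samples were left out, because this set has 2 libraries at 6 weeks and the counts of 1 of them do not line up with the transcript names (Spearman correlation with the other 22 columns 0.0149 to 0.0294, against 0.610 to 0.764 among those 22, over 53502 transcripts). All mice were males of the strain labelled C57BL/6-129, operated at 3 to 4 months of age, and RNA came from micro-dissected knee cartilage. The labels give no description of the mutant allele, so how far gene function is lost, and in which cells, is not known here. One protocol calls the sham contralateral, so mutant sham and mutant DMM knees may come from the same mice. The series record calls the sham age-matched instead, and the sources used here do not settle which holds. Sequencing was done on 1 pool per time point, so the time after surgery and the sequencing run cannot be told apart in any time effect below.

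Articular cartilage is made and kept by chondrocytes, which lie in a matrix rich in type II collagen and the proteoglycan aggrecan. DMM cuts a ligament that anchors the medial meniscus, which changes the load on the joint, and lesions like those of osteoarthritis then worsen over weeks. TET1 is a dioxygenase that oxidizes 5-methylcytosine in DNA to 5-hydroxymethylcytosine, a mark found at enhancers and gene bodies. The comparison therefore sets an earlier against a later stage of the model, with and without the destabilizing surgery in the mutant, and with and without the mutation after that surgery.

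The deposited table has 90308 transcript rows, of which 63758 have a UCSC identifier and 26550 are named in the form MSTRG.a.b, an assembled transcript b of locus a. The assembled rows were summed to 12881 loci (MSTRG.a), of which 8279 have 1 row, 4602 have 2 or more and the largest has 182. Each UCSC transcript was kept as its own feature. Of the 76639 features, 48000 passed edgeR's filter on low counts, 11853 assembled loci and 36147 UCSC transcripts. Nothing in the files ties these identifiers to genes, and the reference gene tables hold 0 of them, so loci are given by identifier alone, with no genome position and no function. For the same reason neither the level of Tet1 nor markers of chondrocytes, bone, marrow, muscle or synovium could be read as a check on the labels.

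Libraries held 34900890 to 85686397 counts at 6 weeks and 46525869 to 102434731 at 12 weeks, so that 3 counts correspond to 0.0291 to 0.0810 CPM (counts per 1000000 counts of a library, scaled by the TMM method). After every library was thinned to 34900890 counts, 42912 to 45594 features had at least 1 count in the 9 libraries at 6 weeks and 45724 to 47406 in the 9 at 12 weeks. Every 12-week library thus detected more features than every 6-week library. The mean difference was 2050 features (exact two-sided permutation test with time permuted within groups, p = 0.00025, the smallest these permutations can give, and 0.00075 after Benjamini-Hochberg adjustment over 3 library measures). It was seen in each group: 44931 ± 1058 against 46708 ± 752 features in WT DMM, 44377 ± 1278 against 46726 ± 277 in mutant sham and 44628 ± 379 against 46653 ± 855 in mutant DMM (mean ± SD, n = 3, 6 against 12 weeks). The 100 most abundant features of a library took 21.3% to 29.6% of its counts at 6 weeks and 20.8% to 27.0% at 12 weeks, a mean difference of -2.97 percentage points (exact permutation p = 0.027, adjusted 0.0405). Here the ranges overlapped widely, and the test did not pass without mutant sham replicate 1 at 6 weeks or replicate 2 at 12 weeks, or without WT DMM replicate 1 at 6 or at 12 weeks (exact permutation p up to 0.0615, mean difference -2.41 to -3.71 over all 18 libraries left out in turn). Assembled transcripts took 24.8% of the counts on average at 6 weeks and 25.7% at 12 weeks, a difference that did not pass (exact permutation p = 0.173). These permutation tests take the 18 libraries as independent, which would not hold if mutant sham and mutant DMM knees came from the same mice. The main edgeR fit below takes them as independent too.

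**Figure D1:**
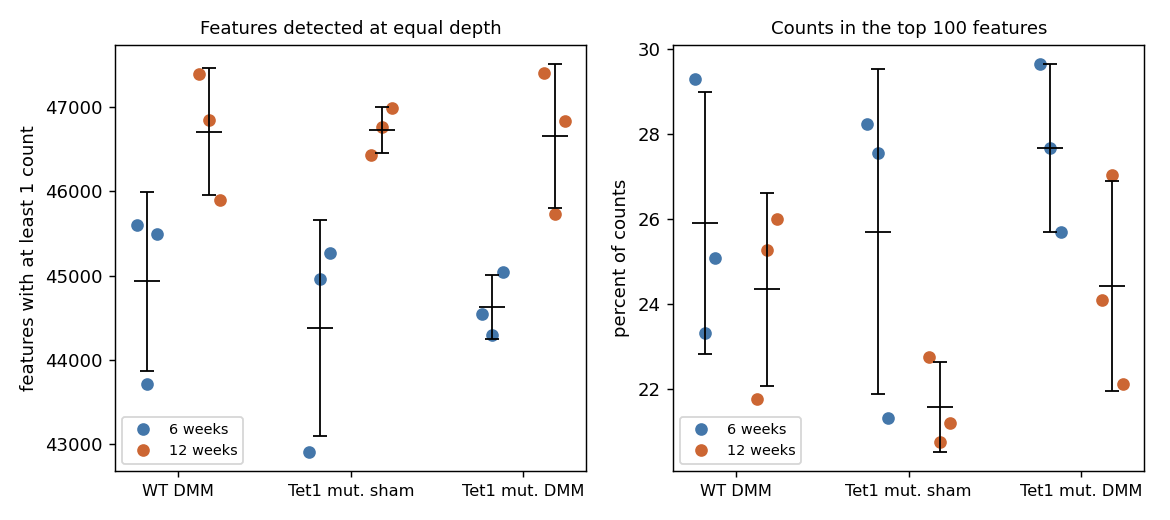
Left, the number of features with at least 1 count after thinning to equal depth (vertical axis), and right, the percent of counts in the 100 most abundant features, for each library (points) of the 3 groups at 6 and 12 weeks; horizontal marks and bars are the mean and SD of 3 libraries, and the vertical axes do not start at 0. On the left the 9 libraries at 12 weeks lie between 45724 and 47406 and the 9 at 6 weeks between 42912 and 45594, with no overlap, while on the right the times overlap.

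The time effect averaged over the 3 groups asked which transcripts differed between 12 and 6 weeks in the mean of the 3 time effects. A large effect in 1 group can carry this mean. Levels of 331 assembled loci were higher (2.79% of the loci tested) and 164 lower (1.38%) at 12 weeks, together 4.18% (edgeR quasi-likelihood test, Benjamini-Hochberg adjusted p below 0.05). With the UCSC transcripts 1362 features were higher (2.84%) and 386 lower (0.804%), or 3.64% of all 48000. The count was 1078 (908 higher, 170 lower) without mutant DMM replicate 1 at 12 weeks and 1136 (952 and 184) without mutant sham replicate 1 at 12 weeks. The log2 fold change of the higher loci had a median of 2.06 (quartiles 1.35 and 3.25) and that of the lower loci a median of -1.48 (quartiles -2.68 and -1.11), whereas the median over all 48000 features was 0.05. With groups at 0 set to the bound that 3 counts per library allow, the medians were 2.00 and -1.48. A change of more than 4-fold was found for 169 of the 331 higher and 52 of the 164 lower loci. All 9 libraries at 12 weeks lay above all 9 at 6 weeks for 133 loci (1.12% of those tested) and below them for 35 (0.295%), and for 515 (1.07%) and 64 (0.133%) of all features. DESeq2 called 6580 features for the average, 63.6% of them higher, against 77.9% of the edgeR calls. Of the 1748 features called by edgeR, 1663 had the same sign of time effect in all 3 groups. They were chosen by the mean of these same effects, which favours a shared sign. The share over all 48000 features is not given here, so this count does not measure how far the groups agree. The calls for the average also hold 10 of the 12 features whose time effects differed between 2 groups, described below.

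MSTRG.21578, the sum of 3 transcript rows, had the largest drop among the loci that met the naming rule. Its level at 6 weeks was 325, 284 and 171 CPM in WT DMM, 431, 300.3 and 398 CPM in mutant sham and 338, 321 and 432 CPM in mutant DMM. At 12 weeks it was 0.340, 0.261 and 0.112 CPM in WT DMM, 0.0597, 0.746 and 0.403 CPM in mutant sham and 0.0521, 0.281 and 0.251 CPM in mutant DMM. The times were far apart in every group, and the average log2 fold change was -10.27 with an SE of 0.58 (edgeR adjusted p = 8.52e-07, lower at 12 weeks in all 3 groups). In linear terms the mean at 6 weeks was 1094 times that at 12 weeks in WT DMM, 935 times in mutant sham and 1869 times in mutant DMM. The row MSTRG.21578.2 held 90.9% of the locus's counts at 6 weeks and 5.45% of the few counts left at 12 weeks.

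MSTRG.23336, a locus with 1 row, also dropped in all 3 groups. It was at 26.9, 27.9 and 26.0 CPM in WT DMM at 6 weeks and at 0.544, 0.685 and 0.510 CPM at 12 weeks. In mutant sham the values were 31.0, 30.1 and 14.9 CPM and then 0.418, 0.463 and 0.381 CPM, and in mutant DMM 28.1, 32.2 and 19.9 CPM and then 0.521, 0.602 and 0.545 CPM. Its average log2 fold change was -5.67 with an SE of 0.21 (edgeR adjusted p = 8.07e-09). The fold between times was 46.5 in WT DMM, 60.2 in mutant sham and 48.1 in mutant DMM, so the 12-week level was low and nearly the same in all 9 libraries.

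MSTRG.2017, also a locus with 1 row, had the largest fitted increase among the loci that met the naming rule. It was at 0.252, 0.297 and 0.174 CPM in WT DMM at 6 weeks, at 0 in all 3 mutant sham libraries and at 0, 0 and 0.0828 CPM in mutant DMM. At 12 weeks it was at 25.8, 23.3 and 24.97 CPM in WT DMM, 24.9, 19.0 and 18.3 CPM in mutant sham and 24.6, 3.91 and 21.3 CPM in mutant DMM. Every 12-week library was above every 6-week library (edgeR adjusted p = 4.01e-05 for the average). The increase was 102-fold in WT DMM and at least 380.2-fold in mutant sham, with 3 counts per library as the floor. Taken by group, it was called in mutant sham and mutant DMM (edgeR adjusted p = 0.00508 and 0.00867) but not in WT DMM (0.0674).

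MSTRG.2172, 1 row as well, had 7 of the 9 libraries at 6 weeks at 0. The exceptions were WT DMM replicate 3 at 6.30 CPM and mutant DMM replicate 3 at 0.0331 CPM. At 12 weeks it was at 29.9, 18.8 and 17.1 CPM in WT DMM, 27.9, 26.5 and 28.4 CPM in mutant sham and 24.7, 25.2 and 27.1 CPM in mutant DMM, above every 6-week library (edgeR adjusted p = 0.00406 for the average). In mutant sham this is at least 506-fold higher, although no single group passed for this locus (edgeR adjusted p = 0.702 in WT DMM, 0.103 in mutant sham and 0.0758 in mutant DMM). The 4 loci named for the average passed in every alternative analysis that gave a value for them, 24 for MSTRG.2172 and 25 for each of the others. For MSTRG.2172 all of these were edgeR fits, as DESeq2 gave no adjusted p.

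**Figure D2:**
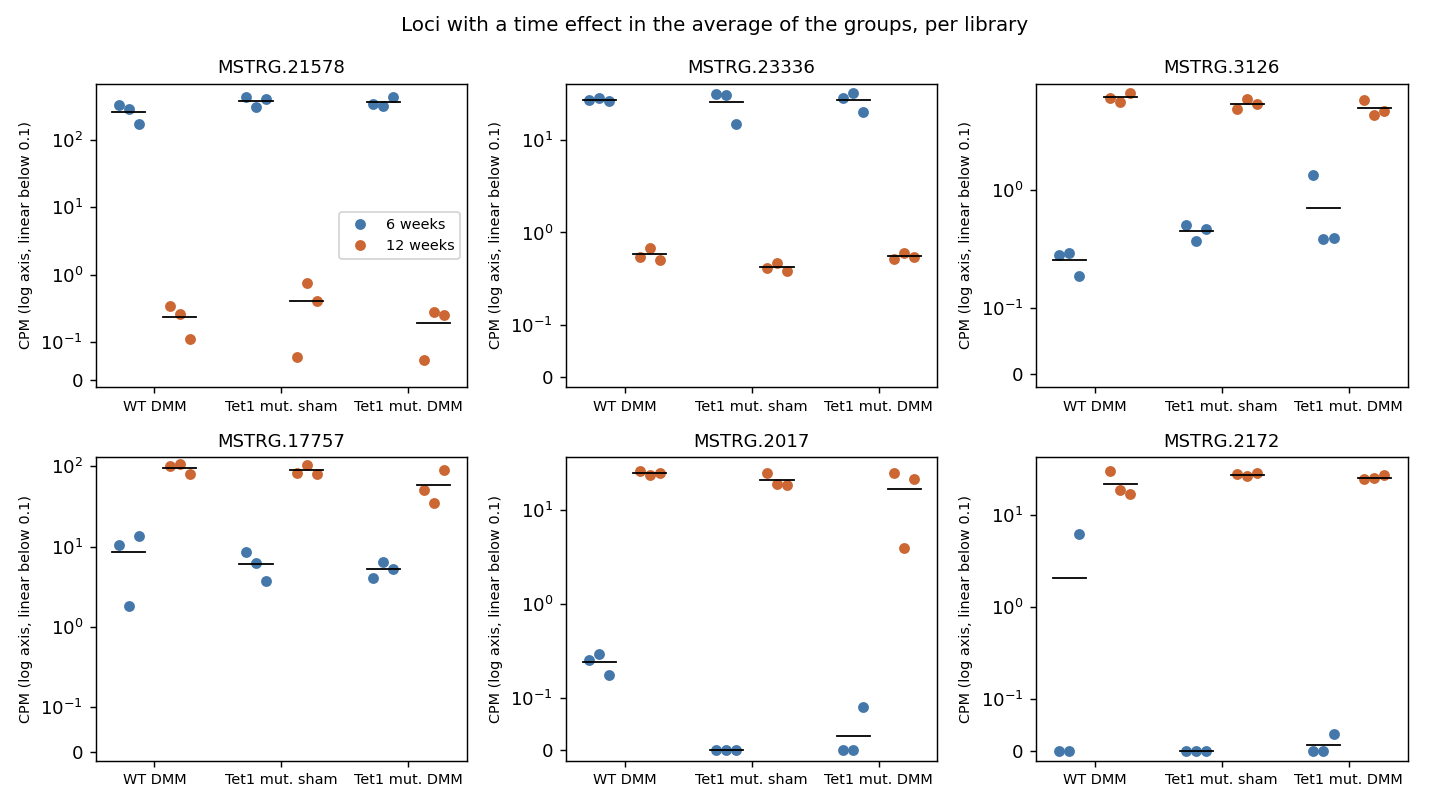
CPM of 6 assembled loci in each of the 18 libraries (points), by group and time; the vertical axis is logarithmic above 0.1 CPM and linear below it, and short lines are group means. MSTRG.21578 and MSTRG.23336 are lower and the other 4 higher at 12 weeks in all 3 groups, with no overlap of the times within a group.

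Taken group by group, the time effect was called for 20 loci in WT DMM (0.169% of loci), 10 higher (0.0844%) and 10 lower (0.0844%) at 12 weeks, by edgeR at an adjusted p below 0.05. In mutant sham it was called for 53 loci (0.447%), 42 higher (0.354%) and 11 lower (0.0928%). In mutant DMM it was called for 123 loci (1.04%), 105 higher (0.886%) and 18 lower (0.152%). With UCSC transcripts the counts were 69 features in WT DMM (0.144%), of which 57 were higher (0.119%) and 12 lower (0.025%). They were 192 in mutant sham (0.4%), with 178 higher (0.371%) and 14 lower (0.0292%), and 528 in mutant DMM (1.1%), with 495 higher (1.03%) and 33 lower (0.0688%). The 3 groups thus had more calls higher than lower at 12 weeks, except for the even split of the WT DMM loci. By DESeq2 the split was more even, with 1118 higher and 543 lower in WT DMM (67.3% higher, against 82.6% by edgeR), 1571 and 730 in mutant sham (68.3% against 92.7%) and 2504 and 864 in mutant DMM (74.3% against 93.8%). At an unadjusted p below 0.05 there were 3537, 4170 and 5676 features by edgeR. All 3 libraries at 12 weeks lay above all 3 at 6 weeks for 4777 features in WT DMM (9.95%), 4044 in mutant sham (8.43%) and 4960 in mutant DMM (10.3%), and below them for 3269 (6.81%), 3160 (6.58%) and 3551 (7.4%). Among the higher calls, 9 of 57 in WT DMM, 20 of 178 in mutant sham and 75 of 495 in mutant DMM were at 0 in all 3 libraries of the group at 6 weeks, and the lower calls at 0 in all 3 at 12 weeks were 1, 1 and 4. The share of all tested features at 0 in these sets is not given here. Features called higher are chosen in part for a low level at 6 weeks, so these counts describe the calls only. Whether the number of calls itself differs between the groups was not tested. These counts borrow the spread between replicates from all 6 sets. With only the 6 libraries of a group in the fit, edgeR called 7 in WT DMM, 0 in mutant sham (2799 at an unadjusted p below 0.05, with 2301 called by DESeq2 on all 18 libraries) and 35 in mutant DMM. Only 2 of the 7 and 17 of the 35 were also among the 69 and 528 called with all 18 libraries.

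**Figure D3:**
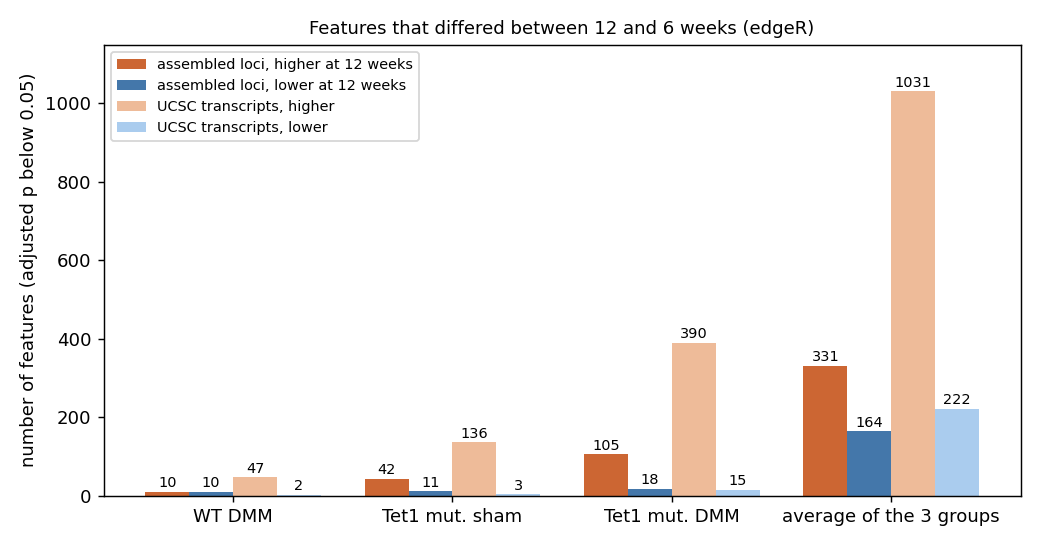
Number of features (vertical axis) that differed between 12 and 6 weeks at an edgeR adjusted p below 0.05 in each group and for the average of the groups, split into assembled loci and UCSC transcripts and by direction. Loci higher at 12 weeks number 10, 42 and 105 in WT DMM, mutant sham and mutant DMM and 331 for the average, against 10, 11, 18 and 164 lower.

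In WT DMM the loci with the largest increase that met the naming rule were MSTRG.3126 and MSTRG.17757. MSTRG.3126, a locus with 1 row, was at 0.281, 0.297 and 0.187 CPM at 6 weeks and 6.09, 5.63 and 6.69 CPM at 12 weeks, a 24.1-fold difference (log2 fold change 4.58, SE 0.52, edgeR adjusted p = 0.00329). It was also higher in mutant sham (11.9-fold, edgeR adjusted p = 0.00547) and mutant DMM (6.99-fold, 0.0145), where replicate 1 at 6 weeks stood above the others at 1.35 CPM. MSTRG.17757, a locus with 2 rows, was at 10.5, 1.84 and 13.7 CPM at 6 weeks and 102, 106 and 80.6 CPM at 12 weeks in WT DMM (11.1-fold, edgeR adjusted p = 0.0381), with increases of 14.5-fold in mutant sham and 11.2-fold in mutant DMM. Its call in WT DMM held in 11 of 26 alternative analyses (adjusted p 1.37e-07 by DESeq2 to 0.271), although its average time effect passed (edgeR adjusted p = 4.81e-05). Among the loci that met the naming rule, MSTRG.21578 and MSTRG.23336 had the largest drops in all 3 groups (log2 fold changes -10.09 and -5.53 in WT DMM, -9.86 and -5.90 in mutant sham, -10.88 and -5.59 in mutant DMM, edgeR adjusted p at most 0.000864). With only the WT DMM libraries in the fit, MSTRG.3126 and MSTRG.21578 were not called (edgeR adjusted p = 0.062 and 0.0506). MSTRG.17757 was not called there either, whereas MSTRG.23336 was. With only the mutant sham libraries, no feature was called. Without 1 of the WT DMM libraries replicate 1 or 2 at 12 weeks or replicate 2 or 3 at 6 weeks, 35, 34, 35 and 43 features were called in WT DMM.

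In mutant sham the largest fitted increases among loci that met the naming rule were MSTRG.2017, described above (edgeR adjusted p = 0.00508), and MSTRG.2819. Both were at 0 at 6 weeks in this group, where the fitted value depends on the prior count and the rank is no measure of size. MSTRG.2819 was at 0 in the 3 mutant sham libraries at 6 weeks and at 21.2, 14.1 and 22.1 CPM at 12 weeks, at least 351-fold higher (edgeR adjusted p = 0.0372). In WT DMM it was present at both times, at 21.2, 14.4 and 30.2 CPM and then 16.04, 9.72 and 10.7 CPM. In mutant DMM it was at 8.42, 0 and 19.8 CPM at 6 weeks and 25.5, 29.0 and 11.6 CPM at 12 weeks, so a library at 0 also occurred among libraries with clear signal. The call was kept in 7 of 26 alternatives (adjusted p 1.17e-10 by DESeq2 to 0.162), against 25 of 26 for MSTRG.2017. The mutant sham count was 99 and 119 without replicates 1 and 3 at 12 weeks, and 117, 81 and 360 without replicates 1, 2 and 3 at 6 weeks.

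In mutant DMM the largest fitted increases among loci that met the naming rule were 2 loci at 0 in all 3 libraries at 6 weeks. A fitted fold change from a group at 0 depends on the prior count, so this rank is no measure of size. MSTRG.1736 was then at 47.6, 37.0 and 49.6 CPM at 12 weeks, at least 929-fold higher (edgeR adjusted p = 0.0284). In WT DMM it was at 34.3, 33.2 and 28.1 CPM at 6 weeks and 50.4, 0 and 62.8 CPM at 12 weeks. In mutant sham it was at 55.6, 31.4 and 43.0 CPM and then 52.4, 15.6 and 47.8 CPM, so the times overlapped in both of these groups. MSTRG.15763, a locus with 3 rows, was at 54.0, 14.2 and 47.1 CPM in mutant DMM at 12 weeks, at least 797-fold higher (edgeR adjusted p = 0.0403). It was low or 0 at 6 weeks in the other groups too, at 6.09, 0 and 2.50 CPM in WT DMM and 0.147, 0.0744 and 5.61 CPM in mutant sham, and at 19.4 to 53.0 CPM in these groups at 12 weeks. The calls of MSTRG.1736 and MSTRG.15763 held in 18 and 10 of 26 alternatives (adjusted p 9.55e-12 and 2.70e-10 by DESeq2, up to 0.113 and 0.148). The mutant DMM count fell to 196 and 242 without replicates 1 and 3 at 12 weeks, to 277, 126 and 188 without replicates 1, 2 and 3 at 6 weeks, and to 305 and 330 without mutant sham replicate 3 or WT DMM replicate 2 at 12 weeks, which are not in the group compared but enter the shared estimate of spread.

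The 3 time effects were then set against each other. They share no library, but they share the sequencing runs. Of the 69 features called in WT DMM, 66 had the same sign in mutant DMM and 66 in mutant sham, with 60 and 55 of them also called there. Over all 48000 features tested the sign was the same for 61.0% and 61.3%. Of the 192 called in mutant sham, 191 had the same sign in mutant DMM (66.2% over all features) and 177 in WT DMM. Of the 528 called in mutant DMM, 508 had the same sign in mutant sham and 480 in WT DMM. The sizes were less alike than the signs: features called higher in mutant DMM had a median log2 fold change of 3.22 there, 2.17 in mutant sham and 1.15 in WT DMM, where the features were chosen by their value in the first group (3.15, 2.16 and 1.14 with groups at 0 set to their bound). In the other direction, features called higher in WT DMM had medians of 2.76 in WT DMM, 2.94 in mutant DMM and 3.17 in mutant sham (2.74, 2.94 and 3.17 at the bound).

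Across the 11853 assembled loci the Spearman correlation of log2 fold changes was 0.46 between mutant sham and mutant DMM, 0.34 between WT DMM and mutant sham and 0.33 between WT DMM and mutant DMM. It was 0.37, 0.27 and 0.26 over all 48000 features. These are descriptions across features, which are not independent replicates, and the mutant pair may share mice as well as the runs. Within a time point, mutant sham and mutant DMM libraries of the same replicate number deviated from their group means together more than those of different numbers (correlation 0.0356 to 0.266, over 0.1 in 5 of 6 pairs, against -0.193 to 0.106). The labels do not say that a number marks a mouse.

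**Figure D4:**
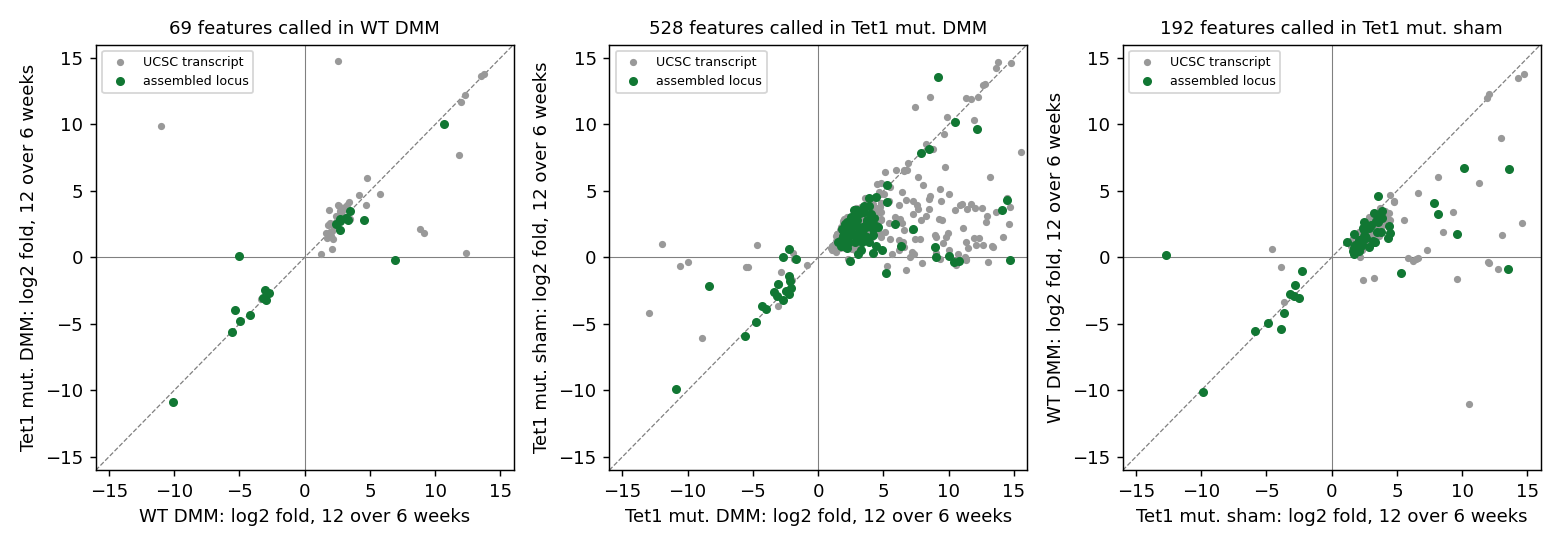
Log2 fold change (12 over 6 weeks) of the features called in 1 group (horizontal axis) against that of the same features in another group (vertical axis), for 69 features called in WT DMM (against mutant DMM), 528 in mutant DMM (against mutant sham) and 192 in mutant sham (against WT DMM); fitted values of groups at 0 depend on the prior count, green points are assembled loci, grey points UCSC transcripts, and the dashed line marks equal values. Most points have the same sign on both axes, for example 66 of 69 in the first panel, and points near 0 on the vertical axis have a time effect close to 0 in the second group.

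Altogether 565 of the 48000 features tested were called in at least 1 group, 397 of them in exactly 1 and 56 in all 3. A call in exactly 1 group need not mark a change particular to it. Of the features called in a group, 90.9% to 99.5% had the same sign in another, against 61.0% to 66.2% over all features. Of the 56 called in all 3 groups, 46 were higher and 9 lower in all 3, among them 8 loci higher and 8 lower. Their median log2 fold change was 2.73 in WT DMM, 3.34 in mutant sham and 3.01 in mutant DMM for those higher (the same values at the bound), and -4.21, -3.68 and -3.97 for those lower. Passing in all 3 groups requires a large change in each, so the likeness of these medians follows in part from the choice. The exception among the 56 was the UCSC transcript uc009tfy.1, chosen after its values were seen. It was at 6.70, 1.403 and 2.37 CPM in WT DMM at 6 weeks and at 0 in all 3 WT DMM libraries at 12 weeks, a drop of at least 113-fold (edgeR adjusted p = 0.0252). In the mutant it was at 0 in all 6 libraries at 6 weeks, and at 12 weeks at 3.08, 3.33 and 1.13 CPM in sham and 0.635, 1.79 and 2.27 CPM in DMM. These are increases of at least 46.1-fold in mutant sham and at least 32.4-fold in mutant DMM (edgeR adjusted p = 0.0202 and 0.0169).

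The difference between time effects was tested feature by feature, which asks whether the change from 6 to 12 weeks depends on the group. A run effect of the same fold in the groups compared would drop out of this difference. Mutant DMM differs from WT DMM in genotype and from mutant sham in surgery. Mutant sham and WT DMM differ in both, so their differences cannot be assigned to genotype or to surgery. The time effect of mutant DMM differed from that of WT DMM for 11 features (0.0229%) by edgeR, 9 (0.0188%) with the more positive effect in mutant DMM and 2 (0.00417%) in WT DMM. It differed from that of mutant sham for 6 features (0.0125%), all 6 more positive in mutant DMM, and the effects of mutant sham and WT DMM differed for 5 features (0.0104%), 4 (0.00833%) more positive in mutant sham and 1 (0.00208%) in WT DMM. Assembled loci gave 1, 1 and 0 of these calls (0.00844%, 0.00844% and 0% of loci). Without WT DMM replicate 1 at 6 weeks the direction turned, to 10 more positive in mutant DMM and 13 in WT DMM, and to 5 more positive in mutant sham and 13 in WT DMM. Without WT DMM replicate 3 at 6 weeks the split was 9 and 8 for the first of these pairs and 3 and 5 for the second. With mutant sham and DMM of the same number and time taken as 1 mouse, mutant DMM against mutant sham called 0 features by edgeR (1436 at an unadjusted p below 0.05, and 1219 by DESeq2 without such pairs), so all 6 calls were lost. A joint test for any difference among the 3 called 12 features (0.025%), 1 of them an assembled locus (0.00844%). At an unadjusted p below 0.05 there were 3024 (6.3%), 2114 (4.4%) and 2282 (4.75%) features for the 3 pairs and 2389 (4.98%) for the joint test by edgeR. Unchanged features would give 5% if the p-values were well calibrated. By DESeq2 the numbers were larger, at 4598, 3325, 3607 and 3414. The edgeR shares near 5% do not show that the time effects were alike. DESeq2 called 1481 (896 more positive in mutant DMM, 585 in WT DMM), 1219 (661 in mutant DMM, 558 in mutant sham), 1119 (588 in mutant sham, 531 in WT DMM) and 358. Without mutant sham replicate 3 at 6 weeks, edgeR called 44, 15 and 40 features for the 3 pairs and 53 jointly, and without mutant DMM replicate 2 at 6 weeks 30, 21, 6 and 29. The count for mutant DMM against WT DMM was 18, 22 and 28 without mutant DMM replicate 1 at 12 weeks or replicate 1 or 3 at 6 weeks, 22 and 32 without mutant sham replicate 1 or 2 at 6 weeks, and 22, 19, 23 and 17 without WT DMM replicate 1 or 2 at 12 weeks or replicate 1 or 3 at 6 weeks.

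MSTRG.11055, a locus with 1 row, was the assembled locus whose time effect differed. It was at 4.04, 3.27 and 3.20 CPM in WT DMM at 6 weeks and 4.10, 4.18 and 3.00 CPM at 12 weeks. In mutant sham it was at 4.13, 2.86 and 2.56 CPM and then 3.27, 2.28 and 2.56 CPM. In mutant DMM it was at 0 in all 3 libraries at 6 weeks and at 3.47, 3.41 and 2.24 CPM at 12 weeks, at least 63.1-fold higher. Only the mutant DMM libraries at 6 weeks stood apart, and the difference of time effects passed against WT DMM (edgeR adjusted p = 6.42e-05) and against mutant sham (5.44e-05). It was called in all 26 alternatives against WT DMM. Against mutant sham it was called in 26 of 27, and lost where mutant sham and DMM of the same number and time were taken as 1 mouse (edgeR adjusted p = 0.663, in a range from 2.10e-13 by DESeq2).

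The UCSC transcript uc009bke.2 had the same pattern, at 0 in mutant DMM at 6 weeks and at 27.3, 13.6 and 10.8 CPM at 12 weeks, at least 358-fold higher. It was at 11.6, 12.0 and 8.45 CPM and then 10.8, 10.2 and 9.63 CPM in WT DMM, a time effect that differed from that of mutant DMM (edgeR adjusted p = 0.00142, called in all 26 alternatives). In mutant sham it was at 2.49, 13.97 and 16.8 CPM and then 9.55, 30.6 and 19.5 CPM. That difference also passed (edgeR adjusted p = 0.00399) and was lost in 2 of 27 alternatives.

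Against mutant DMM, 2 UCSC transcripts had the more positive time effect in WT DMM. The transcript uc008btj.2 was at 0 in WT DMM at 6 weeks and at 9.79, 10.9 and 5.21 CPM at 12 weeks, at least 159-fold higher. In mutant DMM it was at 5.78, 8.54 and 9.60 CPM and then 12.9, 4.96 and 11.7 CPM, and in mutant sham at 5.40, 11.1 and 16.7 CPM and then 7.80, 8.69 and 8.52 CPM. Both differences passed (edgeR adjusted p = 0.00032 and 0.000462) and were called in all 26 alternatives. The transcript uc008iyd.1 had higher levels at 12 weeks in every group, and its 6-week level was lowest in WT DMM. Its time effect was called in WT DMM (edgeR adjusted p = 0.000595) but not in mutant sham (0.0552) or mutant DMM (0.143). This transcript was at 0.0296, 0 and 0.0249 CPM in WT DMM at 6 weeks and 13.99, 9.95 and 5.69 CPM at 12 weeks. In mutant DMM it was at 2.79, 3.05 and 3.10 CPM and then 14.9, 11.1 and 12.4 CPM, and the difference of time effects passed (edgeR adjusted p = 0.0197). In mutant sham it was at 1.95, 3.08 and 0.671 CPM and then 19.3, 10.8 and 16.7 CPM. The call of the difference between mutant DMM and WT DMM was lost in 6 of 26 alternatives, among them without WT DMM replicate 3 at 6 weeks and without any 1 of the mutant DMM libraries at 12 weeks (adjusted p 7.75e-09 by DESeq2 to 0.171).

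Mutant sham and WT DMM differ in genotype and in surgery. Among features that met the naming rule, uc008zpw.2 and uc007nte.2 had the largest fitted differences with the more positive effect in mutant sham. The transcript uc008zpw.2 was at 0 in all 6 mutant libraries at 6 weeks and at 6.74, 4.26 and 4.37 CPM in WT DMM. At 12 weeks it was at 47.3, 38.8 and 38.4 CPM in mutant sham, 57.0, 38.1 and 44.6 CPM in mutant DMM and 35.1, 36.8 and 19.2 CPM in WT DMM. It was therefore higher at 12 weeks in all 3 groups, 5.92-fold in WT DMM and at least 761-fold in mutant sham, and the effects differed (edgeR adjusted p = 0.000402). The transcript uc007nte.2 was also at 0 in the 6 mutant libraries at 6 weeks, against 5.96, 3.78 and 3.46 CPM in WT DMM. It was at 12.5, 14.6 and 14.5 CPM in mutant sham, 6.48, 15.98 and 13.8 CPM in mutant DMM and 7.72, 14.5 and 19.3 CPM in WT DMM at 12 weeks (edgeR adjusted p = 0.00347). For uc009tfy.1, described above, the effects of mutant DMM and WT DMM (edgeR adjusted p = 0.0147) and of mutant sham and WT DMM (0.0257) differed with opposite signs, in 22 and 18 of 26 alternatives (adjusted p 8.78e-18 and 1.79e-18 by DESeq2, up to 0.243 and 0.327).

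The UCSC transcript uc007rdo.2 differed between groups without any library at 0. It was at 10.7, 6.40 and 6.71 CPM in mutant sham at 6 weeks and 95.3, 60.2 and 70.1 CPM at 12 weeks, a 9.49-fold increase (edgeR adjusted p = 0.00185). In mutant DMM it was at 13.01, 6.28 and 11.7 CPM and then 14.6, 8.51 and 15.6 CPM (edgeR adjusted p = 0.809). In WT DMM it was at 54.4, 33.4 and 36.4 CPM and then 11.5, 14.4 and 17.5 CPM, with no overlap of the times but no call (log2 fold change -1.52, edgeR adjusted p = 0.22). The difference of effects between mutant sham and WT DMM was 4.77 on the log2 scale (SE 0.52, edgeR adjusted p = 0.00347, called in all 26 alternatives), a pair named after its values were seen. Between mutant DMM and mutant sham it had the smallest p among features with the more negative effect in mutant DMM and did not pass (-2.93, SE 0.50, edgeR adjusted p = 0.285). The next by p in that direction, uc033hfr.1, did not pass either (edgeR adjusted p = 0.298). It was at 0 in mutant sham at 6 weeks and at most at 0.361 CPM in the other libraries of the pair. MSTRG.8748, the locus with the next smallest joint p after MSTRG.11055, also missed the threshold (edgeR adjusted p = 0.054). It was at 0 in WT DMM at 6 weeks and at 0.204, 0.196 and 0.194 CPM at 12 weeks, and between 0.102 and 0.342 CPM in the mutant libraries.

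**Figure D5:**
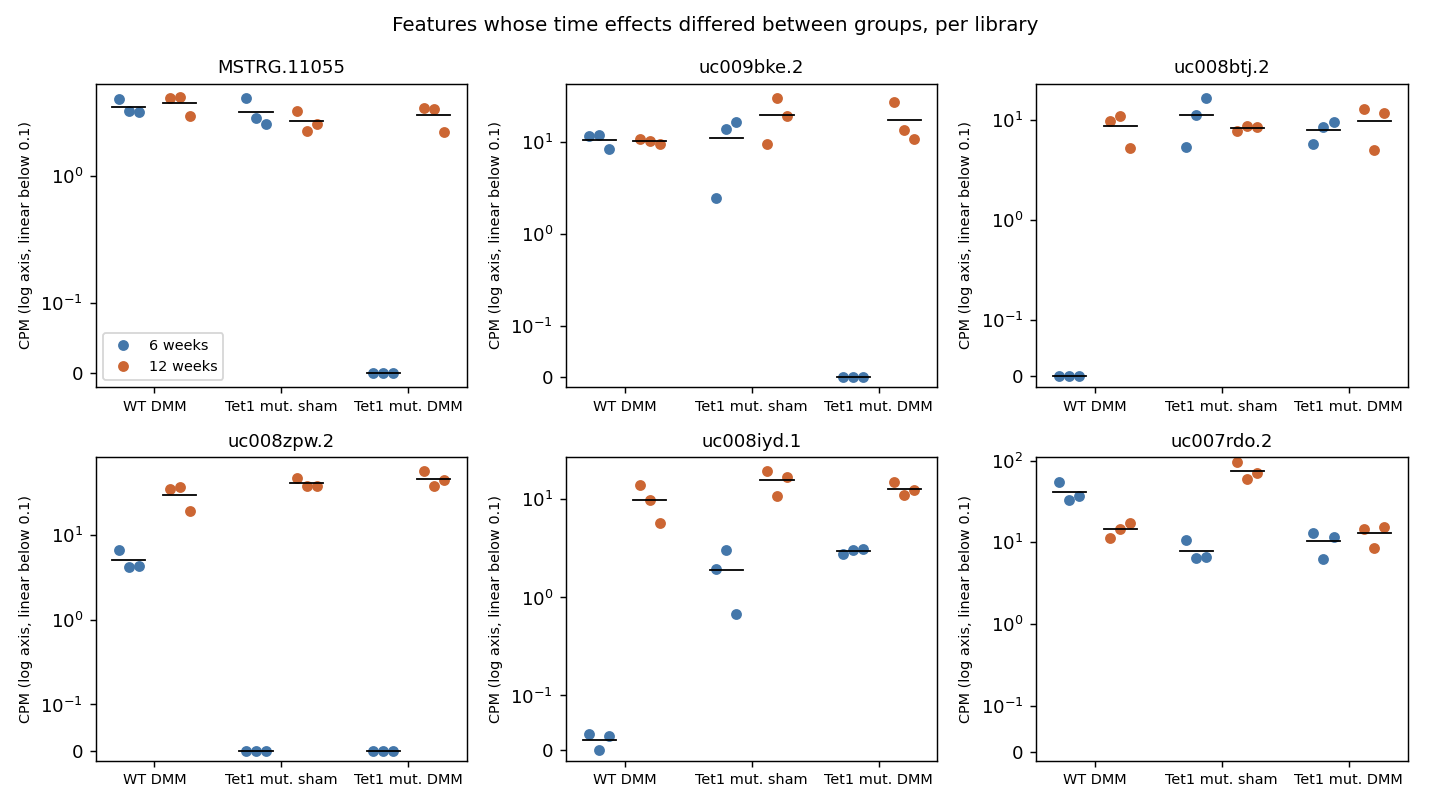
CPM of 6 features whose time effects differed between groups in at least 1 of the 3 paired tests, in each of the 18 libraries (points), by group and time; the vertical axis is logarithmic above 0.1 CPM and linear below it, and short lines are group means. MSTRG.11055 and uc009bke.2 are at 0 in the 3 mutant DMM libraries at 6 weeks alone, uc008btj.2 in the 3 WT DMM libraries at 6 weeks alone, and uc007rdo.2 is at 0 in no library.

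Most of these differences rested on a whole set of libraries at 0. Of the 12 features called for at least 1 pair, 9 were at 0 in all 3 libraries of at least 1 set, 5 of them in mutant DMM at 6 weeks alone and 2 in both mutant sets at 6 weeks. The share of all 48000 features at 0 in at least 1 whole set is not given here. The counts that follow use a stricter pattern and are no background for the 9 of 12. Among all 48000 features tested, 18 were at 0 in the 3 mutant DMM libraries at 6 weeks while all 15 other libraries had counts, and 7 and 4 were so for mutant sham and WT DMM at 6 weeks. At 12 weeks the same pattern was found for 0 features in mutant DMM, 1 in mutant sham and 1 in WT DMM. The 18 features had a median level of 1.10 CPM and a highest of 28.7 CPM in the other libraries. A set with 3 libraries at 0 and counts in all 15 others was thus found for more features at 6 than at 12 weeks. The 6-week libraries also had the lower number of features detected at equal depth, and this was not tested.

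Loci called as sums were set beside those with a called row when rows were not summed, a fit that also tested more features (58620 against 48000). For the average time effect, 22473 of these were assembled rows and 471 of the rows were called, in 445 loci. Of these, 318 were also among the 495 called as sums, 127 had a called row but no call as a sum, and 177 were called as a sum with no row called. All 127 and 98 of the 177 have 2 or more rows, and the rest of the 177 have 1 row, which summing does not alter. No locus had 1 row called higher and another lower in any of the 3 groups or for the average (0 loci by edgeR at an adjusted p below 0.05). In mutant DMM, 64 of the 123 loci called had no called row and 36 of these have 2 or more rows. The share of loci called for the average was 4.21% of 7342 loci with 1 row, 3.70% of 3406 with 2 to 4 rows and 5.43% of 1105 with 5 or more, beside 3.47% of the UCSC transcripts. Loci with more rows also had higher levels (median log2 CPM 1.04, 3.58 and 5.04), and the part of the level in these shares was not tested. Calls lower at 12 weeks made up 125 of 309 among loci with 1 row, 26 of 126 with 2 to 4 rows and 13 of 60 with 5 or more.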

How the data were processed

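The tools named in the submitters' processing notes are HISAT2, Trimmomatic, DESeq2 and CASAVA 1.4, with build mm10, and per the labels' protocols libraries came from a SMART-seq2 kit and each time point was sequenced in 2 lanes. For the transcript assembler and counter, names are not given in the sources used here. Values are estimated counts of reads for each transcript row, deposited by the authors in whole numbers and without normalization. UCSC models of a locus keep their own rows, so a locus sum covers its assembled rows only. The authors' tables of comparisons were not used.

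Assembled rows were summed to loci. edgeR 4.0.16 in R 4.3.3 (package filter by group, TMM, robust quasi-likelihood, 1 mean per group, Benjamini-Hochberg over all 48000 features) was fitted to the 18 libraries, common dispersion 0.977. An SE is the log2 fold change divided by the root of its F. A fold against a group at 0 uses 3 counts per library as its floor, in CPM. DESeq2 1.42.0 was an alternative. The procedure was tested on simulated data for the mutant DMM time effect, where it called a minority of the changed features. Nothing says the samples of a group are separate mice beyond the series record's wording of biological replicates. Replicates differed far beyond counting error (chi-square per degree of freedom at least 268).

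At most 2 identifiers per direction and comparison are named, assembled loci first: adjusted p below 0.05, mean log2 CPM of at least 1, times not overlapping, largest fold change, then UCSC transcripts, then smallest p. Members and lists were chosen with earlier results of these data known. Lists of cartilage, enzyme and cell type genes could not be tested without gene names.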

Additional observations from a re-analysis of the deposited data

Results flagged for a closer look

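Time effects that differed between groups by the test of the difference itself were 11 features for mutant DMM against WT DMM, 6 for mutant DMM against mutant sham and 5 for mutant sham against WT DMM, with 12 in the joint test (edgeR adjusted p below 0.05). Fitted log2 differences that involve a group at 0 depend on the prior count and are no measure of size.

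For mutant DMM minus WT DMM the fitted differences were 10.72 for MSTRG.11055, 13.39 for uc009bke.2, 20.89 for uc009tfy.1, -12.03 for uc008btj.2 and -6.73 for uc008iyd.1. For mutant DMM minus mutant sham they were 11.06 for MSTRG.11055 and 12.48 for uc009bke.2. For mutant sham minus WT DMM they were 12.03 for uc008zpw.2, 11.36 for uc007nte.2, 21.57 for uc009tfy.1, -12.74 for uc008btj.2 and 4.77 for uc007rdo.2. Of these 8 features, 6 were at 0 in all 3 libraries of at least 1 set at 6 weeks, and uc008iyd.1 and uc007rdo.2 were not. The share of all features with such a set is not given here. Groups of 3 libraries were not tested for outlying values.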

How the results depend on the processing

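Leaving out 1 of the 18 libraries at a time, edgeR called 34 to 75 features in WT DMM, 81 to 360 in mutant sham, 126 to 707 in mutant DMM and 1078 to 1994 for the average, 10 to 44, 6 to 21 and 5 to 40 for mutant DMM minus WT DMM, mutant DMM minus mutant sham and mutant sham minus WT DMM, and 11 to 53 in the joint test. For mutant DMM minus mutant sham the count was 10 and 12 without mutant DMM replicate 1 or 3 at 12 weeks, 15, 21 and 20 without replicates 1 to 3 at 6 weeks, 15, 19 and 15 without mutant sham replicates 1 to 3 at 6 weeks and 10 without WT DMM replicate 2 at 12 weeks. For mutant sham minus WT DMM it was 19, 11 and 40 without mutant sham replicates 1 to 3 at 6 weeks, 14 and 15 without WT DMM replicate 1 or 2 at 12 weeks, 18 without WT DMM replicate 1 at 6 weeks, 10 without mutant DMM replicate 1 at 12 weeks, and 8 without mutant sham replicate 1 at 12 weeks or WT DMM replicate 3 at 6 weeks. DESeq2 called 1661, 2301, 3368 and 6580 for the 4 time effects, 1481, 1219 and 1119 for the 3 differences and 358 jointly. With only the libraries compared, edgeR called 7, 0 (2799 with unadjusted p below 0.05) and 35 for the 3 groups, and 77 for mutant DMM minus WT DMM and 22 for mutant sham minus WT DMM. Fitting assembled loci alone gave 20, 70, 151 and 610 for the time effects, 1, 1 and 0 (607 at an unadjusted p below 0.05) for the differences and 1 jointly. Transcript rows without summing gave 332 in mutant DMM and 8 for mutant sham minus WT DMM. With all 22 usable libraries, 17 and 10 were called for mutant DMM and mutant sham minus WT DMM. Calls higher at 12 weeks fell from 77.9% to 63.6% of the average calls with DESeq2 and to 64.6% among loci fitted alone.

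With the replicate block (number as a term) the time effects called 70, 163, 384 and 1406, the differences 9, 6 and 4 and the joint test 10, with no count moved by over 1.5 times. Numbers did not pair the times: same-numbered libraries of a group at 6 and 12 weeks deviated with correlations of -0.0770 to 0.0691, against -0.0817 to 0.103 for different numbers. With mutant sham and DMM of 1 number and time paired as 1 mouse (replicate block), the mutant DMM minus mutant sham difference called 0 (1436 at an unadjusted p below 0.05). Paired by number, the share of counts in top 100 features differed by -2.97 points with an exact sign-flip p of 0.0508.

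Library values left out 1 at a time gave 1806 to 2205 more features detected, -3.71 to -2.41 points in the top 100 features and 0.462 to 1.14 points of assembled share. Set beside the assembled share of counts, the assembled share of features detected was lower at 12 weeks (-0.545 points, exact permutation p = 0.001). Thinning to the smallest library, chosen after seeing the data, called 64, 181, 493 and 1697. Of 855 values of named features under alternatives 760 kept their call status, 84 lost the call, 11 gained one and 0 changed sign.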
